A study of Mus musculus with 4 samples.

Results

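The 4 genes described here, Slc2a2, Slc2a1, G6pc2 and Gpd2, act where glucose enters islet cells and in the first steps of its use. They were read by symbol from the 32285 genes counted, and each symbol matched 1 gene. Islet cells of male mice aged 8 weeks were measured in 4 single-cell RNA libraries, 1 per group. One pair of groups was Tet2(flox/flox)Tet3(flox/flox) mice carrying Pdx1-Cre (Cre-positive) and mice with the same floxed alleles and no Cre (Cre-negative). In the other pair, offspring of mothers with intrauterine hyperglycemia (IHG offspring) stood against offspring of control mothers (Control offspring), for which the labels name neither floxed alleles nor Cre. Tet2 and Tet3 encode enzymes that oxidise methylated cytosine, and the Pdx1 promoter acts in the pancreatic epithelium, from which endocrine and duct cells arise, and not in the lineage of endothelial cells or macrophages. Islets were picked by hand, cultured and dissociated before capture, and the sources used here do not say how many mice went into a library.

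Glucose enters cells through facilitative transporters and is held there once it is phosphorylated. Slc2a2 encodes GLUT2, the high-capacity transporter of mouse beta cells, and Slc2a1 encodes GLUT1, a high-affinity transporter of many cell types that is abundant in endothelium. G6pc2 encodes the glucose-6-phosphatase catalytic subunit of islets, which removes the phosphate again and so opposes the first step of glycolysis. Gpd2 encodes the mitochondrial glycerol-3-phosphate dehydrogenase, which passes electrons from cytosolic NADH to the respiratory chain and is abundant in beta cells.

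The libraries held 52489846 to 109110492 transcript tags with unique molecular identifiers (UMIs) over 6421 to 16459 cell barcodes, and pairs of libraries shared 58 to 246 barcodes. After filtering, 41101 cells fell into 22 clusters, which were named as 7 classes from marker genes, with 4 clusters left unnamed. All 8 beta markers reached 20 counts-per-million (CPM) in the beta-like class of each library, led by Ins2. Unnamed clusters held 11.2% of Cre-positive, 1.24% of Cre-negative, 4.59% of IHG offspring and 8.98% of Control offspring cells. The Cre-negative library stood apart. Of its 3263 beta-like cells, 2379 lay in cluster 4, which held 22 Cre-positive, 149 IHG offspring and 100 Control offspring cells. Its alpha-like cells lay mostly in cluster 14, with 799 of 1038, where no Cre-positive cell fell. Beta-like results are therefore also given within clusters that both libraries of a pair entered. In beta-like cells Tet2 stood at 33.2 CPM in the Cre-positive, 46.6 CPM in the Cre-negative, 32.7 CPM in the IHG offspring and 40.5 CPM in the Control offspring library. Tet3 stood at 26.6 CPM in the Cre-positive, 34.3 CPM in the Cre-negative, 25.7 CPM in the IHG offspring and 30.2 CPM in the Control offspring library. Because the tags come from the 3' end and the floxed exons can lie elsewhere, neither level checks the deletion.

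The 4 genes lie on the plus strand of GRCm38 (GENCODE vM21): Slc2a2 at chr3:28697903-28731359, Slc2a1 at chr4:119108711-119137983, G6pc2 at chr2:69211073-69227841 and Gpd2 at chr2:57237635-57370719. Since the floxed enzymes act on methylated cytosine, which in mammals lies mostly at CG dinucleotides, the promoter windows of the 3 genes with the highest beta-like levels are printed, 5' to 3', with every CG in capitals. They come from the RefSeq promoter table (GRCm38.p6), with bases from the first annotated exon on left out. The second Gpd2 window belongs to a second annotated start of that gene.
Slc2a2, chr3:28697653-28697902: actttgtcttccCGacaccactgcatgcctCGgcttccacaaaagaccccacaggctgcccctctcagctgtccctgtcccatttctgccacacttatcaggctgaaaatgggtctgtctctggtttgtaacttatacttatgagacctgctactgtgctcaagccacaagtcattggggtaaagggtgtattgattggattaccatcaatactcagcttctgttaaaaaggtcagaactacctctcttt
G6pc2, chr2:69210823-69211072: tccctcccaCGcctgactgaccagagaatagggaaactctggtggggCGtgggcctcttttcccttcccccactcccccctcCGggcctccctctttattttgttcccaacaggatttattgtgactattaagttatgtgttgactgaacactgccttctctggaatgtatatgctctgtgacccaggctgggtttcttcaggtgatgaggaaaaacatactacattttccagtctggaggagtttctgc
Gpd2, first start, chr2:57237428-57237634: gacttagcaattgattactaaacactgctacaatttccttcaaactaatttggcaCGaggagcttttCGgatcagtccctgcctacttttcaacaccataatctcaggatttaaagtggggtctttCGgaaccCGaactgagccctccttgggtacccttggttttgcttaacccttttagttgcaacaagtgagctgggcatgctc
Gpd2, second start, chr2:57238132-57238296: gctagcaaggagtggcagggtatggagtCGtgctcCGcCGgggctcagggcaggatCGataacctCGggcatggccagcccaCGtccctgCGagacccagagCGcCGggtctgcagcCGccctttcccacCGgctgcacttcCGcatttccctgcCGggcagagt
The full Slc2a2 window, from 250 bases before to 50 after the start, held 2 CG, and 23.3% of the 32851 windows in the table held as few. The G6pc2 window held 6 CG and that of its second start 5, near the median of 7. The first Gpd2 window held 9 and the second 34, a count that 7.73% of windows reach, and the Slc2a1 window held 18. At least 1 CG is present in 94.6% of windows. These are letters of the reference genome, and no methylation was measured in these samples. Transcripts on the opposite strand overlap Slc2a2 (1700112D23Rik), Slc2a1 (Gm12867 and Gm12868) and Gpd2 (A930012O16Rik), and the sources used here do not say whether the strand entered the counting.

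Levels are in CPM, the UMIs of a gene scaled to all UMIs of the cells of a class in 1 library. Ranges in parentheses are 95% intervals from exact Poisson or conditional binomial (Clopper-Pearson) limits and cover counting error only. With 1 library per group no difference has a replicate check, so a size rule takes the place of a test: the ratio must reach 1.5-fold, and 1 of the libraries 20 CPM. Tags are not scaled by transcript length, so levels are compared within a gene.

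Slc2a2 was highest in beta-like cells in all 4 libraries. Beta-like cells held 275 CPM (269 to 280) in the Cre-positive, 619 CPM (611 to 627) in the Cre-negative, 655 CPM (649 to 662) in the IHG offspring and 724 CPM (718 to 730) in the Control offspring library. The next class by median, the macrophage-like cells, ranged from 7.39 to 119 CPM over the libraries. All other classes overlapped each other in range, with medians from 8.65 CPM in alpha-like to 41.5 CPM in delta-like cells.

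G6pc2 was also highest in beta-like cells in all 4 libraries, at levels closer to each other. It reached 1288 CPM (1275 to 1300) in Cre-positive, 1380 CPM (1367 to 1392) in Cre-negative, 1452 CPM (1442 to 1462) in IHG offspring and 1246 CPM (1238 to 1254) in Control offspring beta-like cells. Outside them the highest level was 210 CPM, in the 51 macrophage-like cells of Control offspring. The ranges of the 6 other classes overlapped.

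Gpd2 was spread over all classes. Beta-like cells held 64.5 CPM (61.8 to 67.4) in the Cre-positive, 124 CPM (120 to 128) in the Cre-negative, 113 CPM (111 to 116) in the IHG offspring and 142 CPM (139 to 144) in the Control offspring library. Endothelial-like cells ranged from 76.7 to 112 CPM and alpha-like cells from 62.0 to 163 CPM, and neither could be ordered against beta-like cells beyond the spread of libraries. PP-like, macrophage-like and delta-like cells followed, with medians of 57.2, 54.6 and 46.8 CPM and overlapping ranges.

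Slc2a1 was low in beta-like cells and had its highest median in endothelial-like cells, where it stood at 70.1 CPM (61.9 to 79.1) in the Cre-positive, 18.7 CPM (8.95 to 34.3, 10 UMIs) in the Cre-negative, 35.5 CPM (27.9 to 44.5) in the IHG offspring and 55.0 CPM (42.1 to 70.6) in the Control offspring library. Macrophage-like cells held 68.1 CPM (56.9 to 80.9), 20.1 CPM (5.47 to 51.4, 4 UMIs) and 27.7 CPM (15.1 to 46.4) in the Cre-positive, Cre-negative and IHG offspring libraries. In the 51 Control offspring macrophage-like cells no UMI was found, and 3 UMIs there would be 27.4 CPM. The 2 classes overlapped in range and have no order. Endocrine classes lay between 3.71 and 12.3 CPM, and beta-like cells held 10.6 CPM (9.51 to 11.8) in Cre-positive, 4.87 CPM (4.16 to 5.67) in Cre-negative, 5.29 CPM (4.71 to 5.92) in IHG offspring and 6.59 CPM (6.03 to 7.19) in Control offspring islets. Alpha-, beta-, delta- and PP-like ranges overlapped and have no order.

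**Figure D1:**
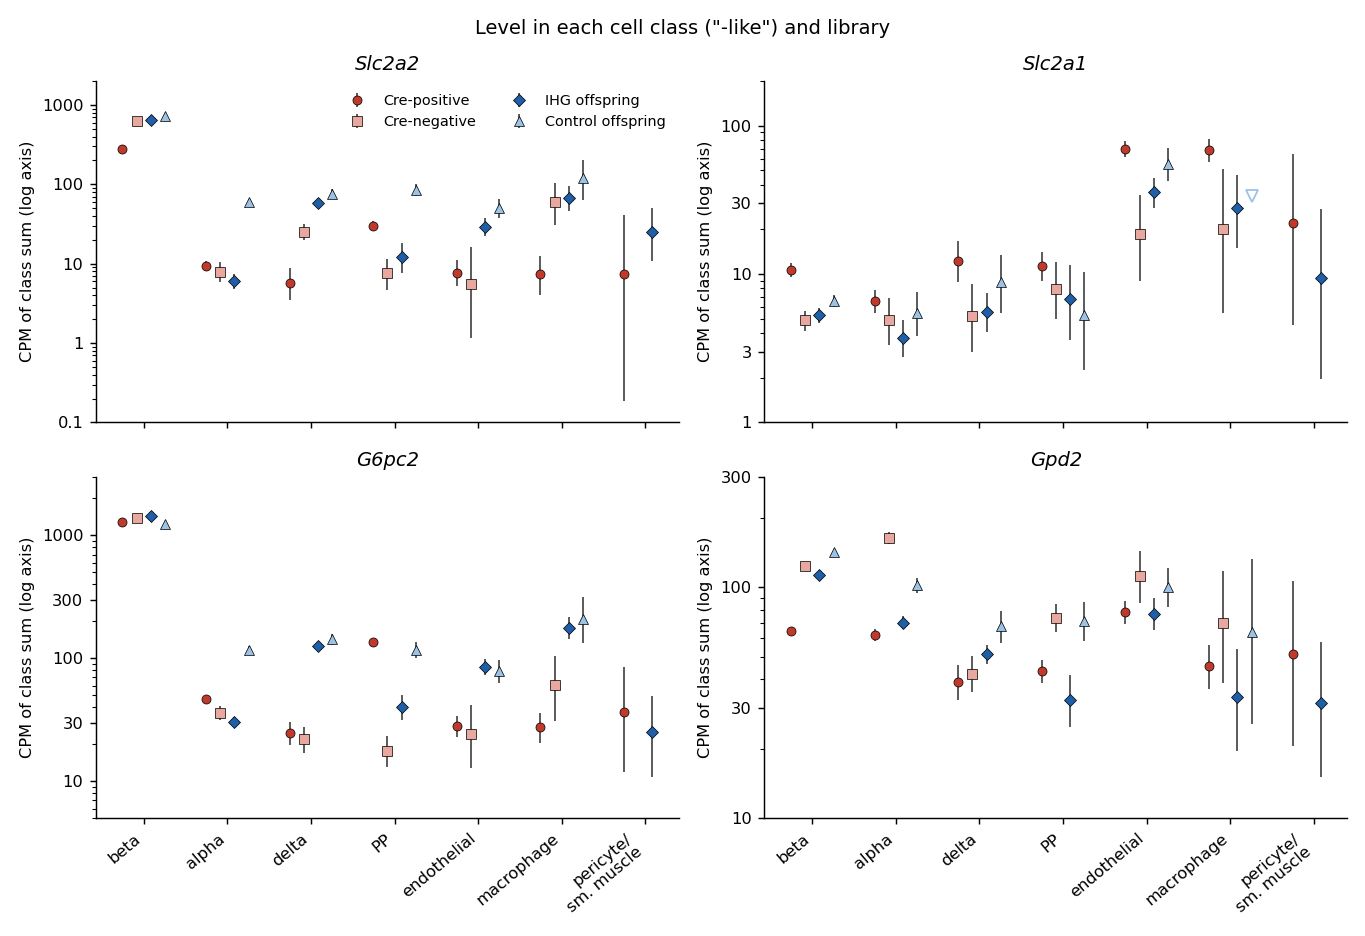
Level of each gene (CPM of the class sum, log axis) by cell class on the x axis, with 1 point per library, coloured by group, and 95% Poisson intervals of counting error; the open triangle is the upper limit of a class with no UMI. Slc2a2 and G6pc2 stand far higher in beta-like cells than elsewhere, Slc2a1 is highest in endothelial- and macrophage-like cells, and Gpd2 is spread over all classes.

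The first comparison asked how beta-like cells of floxed mice differed in the presence of Cre. The transporter gene Slc2a2 was 2.25-fold lower (2.20 to 2.31) and the dehydrogenase gene Gpd2 1.92-fold lower (1.83 to 2.03) in Cre-positive than in Cre-negative beta-like cells. G6pc2 was 1.07-fold lower (1.06 to 1.09), and its direction turned under 3 of 9 alternatives. Of the 3 members that reached 20 CPM, 2 were lower by the size rule, where 19.6% of 6460 genes were lower and 6.89% higher. Slc2a1 was 2.17-fold higher (1.80 to 2.63) at levels under 20 CPM and so outside the rule. Within cluster 0 its ratio was close to 1 with a wide interval (0.471 to 2.04), at 7.11 CPM (13 UMIs) in Cre-positive and 7.09 CPM (25 UMIs) in Cre-negative cells. In cluster 1 it was 1.97-fold higher (0.838 to 6.12, on 323 Cre-positive and 5 Cre-negative UMIs), and clusters 3 and 5 held at most 5 UMIs of it per library. The median log2 ratio of all genes was -0.22, and 3.51% of genes had a lower ratio than Slc2a2, 6.55% a lower ratio than Gpd2 and 60.2% a lower ratio than G6pc2.

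The scaling moved these ratios. Median-of-ratios scaling added 0.18 to each log2 ratio, moved the median of all genes to -0.03 and gave 746 genes higher and 731 lower in place of 445 higher and 1269 lower. Under it the log2 ratios were -1.0 for Slc2a2, -0.77 for Gpd2, 1.30 for Slc2a1 and 0.08 for G6pc2. Slc2a2 and Gpd2 remained past the rule, and G6pc2 changed sign. Against the Control offspring library, used in place of Cre-negative after the data had been seen, the log2 ratio was -1.40 for Slc2a2, -1.14 for Gpd2, 0.05 for G6pc2 and 0.68 for Slc2a1. The Cre-positive library was thus the lowest of the 4 in Slc2a2 and Gpd2 and the highest in Slc2a1 in this class.

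The beta-like classes of this pair differed in other ways. Different clusters held most of them, cluster 1 with 85.7% of Cre-positive and cluster 4 with 72.9% of Cre-negative cells. Summed delta markers stood at 698 CPM in Cre-positive and 4337 CPM in Cre-negative beta-like cells, alpha markers at 3353 CPM in Cre-positive and 1660 CPM in Cre-negative cells, and PP markers at 846 CPM in Cre-positive and 2012 CPM in Cre-negative cells. All 6 delta, 7 alpha and 4 PP markers were detected in both. Cells with over 1% of their UMIs from other islet hormones were 6.02% of the Cre-positive class and 12.0% of the Cre-negative class. Without them the log2 ratios were -1.25 for Slc2a2, -0.94 for Gpd2 and -0.20 for G6pc2. Median depth was 10099 UMIs per cell in Cre-positive and 9527 in Cre-negative cells, and mitochondrially encoded UMIs made up 8.13% in Cre-positive and 8.31% in Cre-negative cells. The part of these differences in the ratios was not tested further.

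The Slc2a2 difference was present inside every beta-like cluster that held at least 50 cells of both libraries. In cluster 0 Slc2a2 stood at 283 CPM in 229 Cre-positive cells and 671 CPM in 297 Cre-negative cells, 2.37-fold lower (2.16 to 2.61). The fold was 2.65 (2.45 to 2.87) in cluster 1, 1.76 (1.45 to 2.15) in cluster 3 and 2.30 (1.93 to 2.77) in cluster 5. Cre-negative cells of cluster 4 held 605 CPM, so this large cluster was not where Slc2a2 was high.

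Gpd2 was lower within the same clusters. It stood at 63.4 CPM in Cre-positive and 93.3 CPM in Cre-negative cells of cluster 0, 1.47-fold lower (1.19 to 1.83), just under the rule. The fold was 1.56 (1.25 to 1.93) in cluster 1, 1.96 (1.18 to 3.42) in cluster 3 and 1.68 (1.16 to 2.5) in cluster 5. Cre-negative cells held 130 CPM in cluster 4, 128 CPM (106 to 152) in cluster 5, 124 CPM (110 to 140) in cluster 6 and 93.3 to 111 CPM in clusters 0, 1 and 3.

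G6pc2, nearly equal in the class as a whole, was lower in Cre-positive cells of each shared cluster. In cluster 0 it stood at 1346 CPM in Cre-positive and 2173 CPM in Cre-negative cells, 1.61-fold lower (1.54 to 1.69). The fold was 1.61 (1.54 to 1.69) in cluster 1, 1.39 (1.28 to 1.52) in cluster 5 and 1.14 (1.03 to 1.26) in cluster 3. In cluster 3 the log2 ratio was -0.18, close to the median of -0.19 for all genes there. The medians of all genes were -0.22 in cluster 0, -0.11 in cluster 1 and -0.06 in cluster 5. Of Cre-negative beta-like cells, 9.1% lay in cluster 0, 2.48% in cluster 1, 3.1% in cluster 3 and 3.62% in cluster 5. Cre-negative cells of clusters 0, 1 and 5 were the highest measured, at 2066 to 2173 CPM, while those of cluster 4 held 1211 CPM and made up most of that class. With cluster 4 left out, an alternative added after the data had been seen, the log2 ratio over the class was -0.55, and separate clustering of the libraries gave -0.49.

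**Figure D2:**
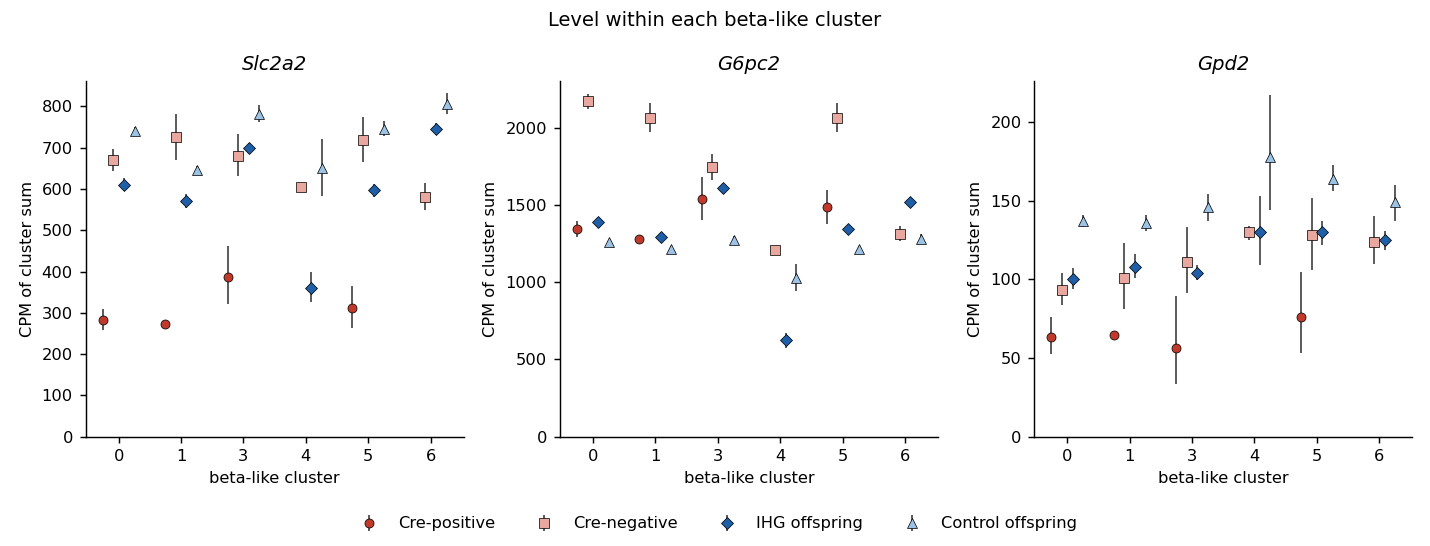
Levels of Slc2a2, G6pc2 and Gpd2 (CPM of the cluster sum) in each beta-like cluster on the x axis, 1 point per library with at least 50 cells there, coloured by group, with 95% Poisson intervals. Cre-positive points are the lowest of their cluster for Slc2a2 and Gpd2; for G6pc2 the Cre-negative points of clusters 0, 1 and 5 stand above all others.

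**Figure D3:**
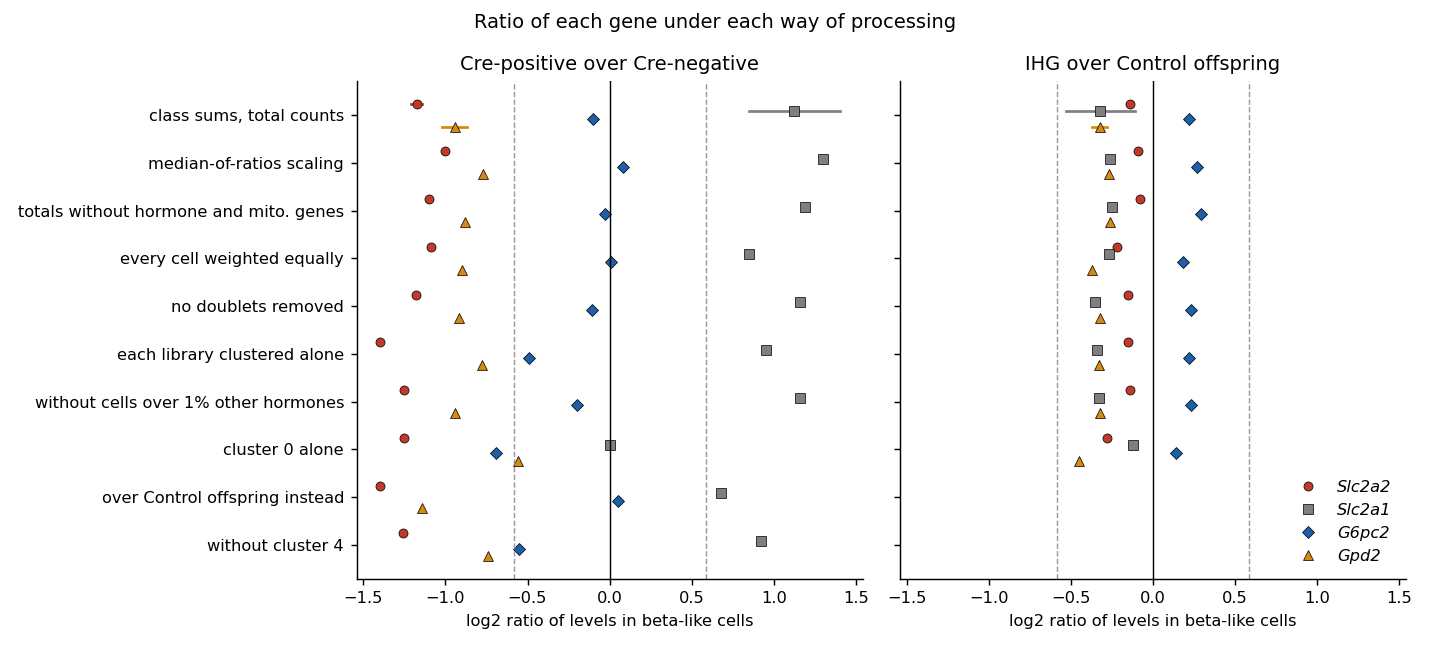
Log2 ratio of each gene between libraries in beta-like cells (x axis) under each way of processing (rows), with 95% counting intervals in the first row and dashed lines at 1.5-fold. Slc2a2 stays between -1.40 and -1.0 for Cre-positive over Cre-negative cells, while G6pc2 lies between -0.69 and 0.08 and changes sign.

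Single cells showed how the levels were spread. With every cell thinned to 2000 UMIs, a Slc2a2 UMI was found in 38.1% (36.2 to 40) of Cre-positive, 57.4% (55.7 to 59.2) of Cre-negative, 66.1% (64.9 to 67.3) of IHG offspring and 73.8% (72.9 to 74.6) of Control offspring beta-like cells. From 71 to 262 shallower beta-like cells were left out per library. Unthinned, the shares were 81.4% in Cre-positive, 82.3% in Cre-negative, 92.5% in IHG offspring and 94.1% in Control offspring cells, at median depths of 10099 UMIs in Cre-positive, 9527 in Cre-negative, 8913 in IHG offspring and 5833 in Control offspring cells. In endothelial-like cells, which should lack the gene, the thinned share was 1.39% in Cre-positive, 0 of 104 cells in Cre-negative (3 cells there would be 2.88%, and the exact upper limit is 3.48%), 3.29% in IHG offspring and 9.30% in Control offspring islets, at median depths of 1683 to 2158 UMIs. As shallow, 799 of 1588 Cre-positive, 93 of 197 Cre-negative, 343 of 769 IHG offspring and 354 of 569 Control offspring endothelial-like cells were left out of these shares. The median beta-like cell held 224 CPM of Slc2a2 in Cre-positive and 488 CPM in Cre-negative islets, with quartiles of 95.8 and 390 CPM in Cre-positive and 176 and 865 CPM in Cre-negative cells, ranges that overlapped.

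G6pc2 was unevenly spread over Cre-negative beta-like cells. After thinning, a UMI was found in 84.6% (83.2 to 86.0) of Cre-positive, 70.8% (69.2 to 72.4) of Cre-negative, 87.9% of IHG offspring and 88.6% of Control offspring cells. Unthinned, the shares were 96.1% in Cre-positive, 84.7% in Cre-negative, 97.4% in IHG offspring and 97.9% in Control offspring cells. The mean thinned count was nearly the same in the first pair, 2.45 in Cre-positive and 2.51 in Cre-negative cells, but its variance was 1.67 times the mean in Cre-positive and 2.80 times the mean in Cre-negative cells. The lower and upper quartiles of cells were 689 and 1649 CPM in Cre-positive and 256 and 1898 CPM in Cre-negative islets. Among endothelial-like cells a G6pc2 UMI was found in 4.94% of Cre-positive, 4.81% of Cre-negative, 8.69% of IHG offspring and 11.2% of Control offspring cells after thinning.

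For the less abundant genes the thinned shares were lower. Gpd2 was found in 13.6% (12.4 to 15) of Cre-positive, 20.8% (19.4 to 22.3) of Cre-negative, 19.9% of IHG offspring and 25.4% of Control offspring beta-like cells. Unthinned, it was found in 46.9% of Cre-positive, 62.5% of Cre-negative, 58.7% of IHG offspring and 57.0% of Control offspring cells. Its variance was 1.03 to 1.14 times its mean. Slc2a1 was found in 2.54% (1.97 to 3.22) of Cre-positive, 0.860% (0.567 to 1.25) of Cre-negative, 0.913% of IHG offspring and 1.38% of Control offspring beta-like cells. Unthinned, it was found in 10.6% of Cre-positive, 4.60% of Cre-negative, 4.81% of IHG offspring and 4.51% of Control offspring cells. No class is known to lack either gene, so no background share is given for them.

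The levels of Slc2a2 and G6pc2 outside beta-like cells were set against the insulin transcripts there, each as a share of its own beta-like level. In alpha-like cells Slc2a2 held 3.41% of its beta-like level in the Cre-positive library, where Ins1 held 4.04% and Ins2 4.77%. The same 3 shares were 1.29%, 1.59% and 1.47% in the Cre-negative, 0.911%, 0.861% and 0.975% in the IHG offspring, and 8.16%, 8.55% and 8.76% in the Control offspring library. The Slc2a2 interval lay under both insulin shares in the Cre-positive library (2.93 to 3.94) and held both in the other libraries. Whether alpha-like cells express the gene was not tested. G6pc2 in alpha-like cells stood at 3.62% (3.39 to 3.86) in the Cre-positive library, under both insulin shares. In the Control offspring library it stood at 9.35% (8.71 to 10), above Ins1 and with Ins2 inside the interval. It stood at 2.61% (2.28 to 2.96) in the Cre-negative and 2.08% (1.89 to 2.29) in the IHG offspring library, above both insulin shares. In delta-like cells of the Cre-negative library G6pc2 held 1.59% (1.23 to 2.02), under the 2.52% of Ins1 and 3.97% of Ins2. The part of free RNA or mixed cells in these levels, and in the ratios of both genes outside beta-like cells, was not tested. In PP-like cells Slc2a2 was 3.96-fold higher, at 30.1 CPM in Cre-positive and 7.61 CPM in Cre-negative islets, and G6pc2 7.60-fold higher, at 135 CPM in Cre-positive and 17.8 CPM in Cre-negative islets, with Ins1 at 8759 CPM in Cre-positive and 413 CPM in Cre-negative islets, where 7.79% of genes were higher by the rule. In delta-like cells Slc2a2 was 4.42-fold lower (2.65 to 7.74), at 5.71 CPM in Cre-positive and 25.3 CPM in Cre-negative islets. The 19 Cre-positive UMIs lay in 18 of 679 cells and the 77 Cre-negative UMIs in 28 of 499 cells. Ins1 stood there at 1085 CPM in Cre-positive and 1080 CPM in Cre-negative islets, and Ins2 at 4865 CPM in Cre-positive and 6887 CPM in Cre-negative islets. Of all genes in delta-like cells, 14.1% were lower and 10.2% higher by the rule. Cluster 9 held most Cre-positive and cluster 8 most Cre-negative delta-like cells. In macrophage-like cells Slc2a2 was 8.15-fold lower, on 14 Cre-positive and 12 Cre-negative UMIs, and G6pc2 2.19-fold lower, on 52 Cre-positive and 12 Cre-negative UMIs. Ins2 stood there at 4691 CPM in Cre-positive and 14610 CPM in Cre-negative islets, and 34.9% of genes were lower and 17.8% higher by the rule.

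**Figure D4:**
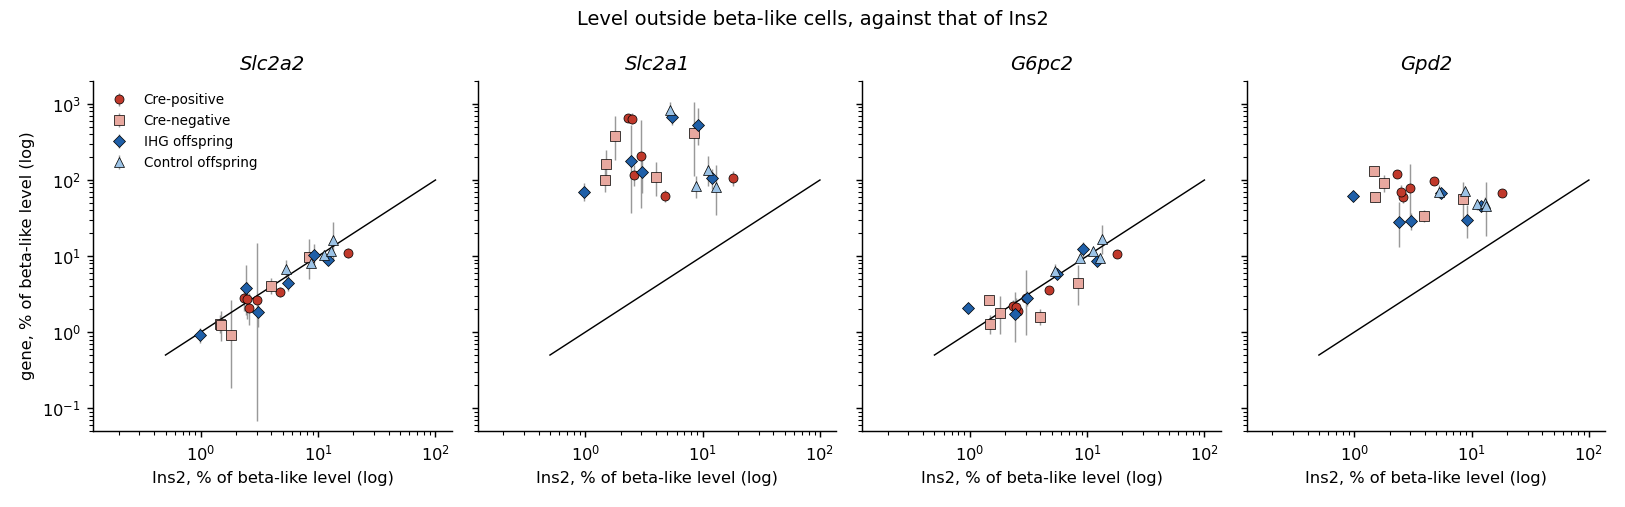
Level of each gene outside beta-like cells as a percent of its beta-like level in the same library (y axis, log), against the same percent for Ins2 (x axis, log); 1 point per class and library, coloured by group, with 95% Poisson intervals, and a line where both are equal. Slc2a2 and G6pc2 lie on both sides of the line, while Gpd2 lies above it in all classes, as does Slc2a1 but for 1 class listed at 0.

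Gpd2 outside beta-like cells stood at 27.8% to 131% of its beta-like level, against at most 18.0% for Ins2. In alpha-like cells it was 2.63-fold lower (2.42 to 2.86), at 62.0 CPM (58.6 to 65.6) in Cre-positive and 163 CPM (153 to 173) in Cre-negative islets, where 37.5% of genes were lower and 5.2% higher by the rule and the median of all genes was -0.46. Cluster 2 held most Cre-positive and cluster 14 most Cre-negative alpha-like cells. Transcripts of other islet hormones also differed: Ins2 stood at 8977 CPM in Cre-positive and 2543 CPM in Cre-negative alpha-like cells, and Sst at 26243 CPM in Cre-positive cells of cluster 2 and 810 CPM in Cre-negative cells of cluster 14. Their part in the ratio was not tested. Within cluster 2 the levels were 61.6 CPM in Cre-positive and 92.4 CPM (63.6 to 130, 33 UMIs) in Cre-negative cells. Within cluster 12 they were 85.1 CPM (56.5 to 123, 28 UMIs) in Cre-positive and 139 CPM (114 to 169) in Cre-negative cells.

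The Gpd2 level was below that of the Cre-negative library in the other Cre-positive classes too, by sizes that did not all pass the rule. PP-like cells, all from cluster 11, held 43.3 CPM in Cre-positive and 73.6 CPM in Cre-negative islets, 1.70-fold lower (1.42 to 2.04), where 26.5% of genes were lower by the rule. Hormone transcripts differed within that cluster. Sst stood at 30111 CPM in Cre-positive and 2375 CPM in Cre-negative cells, and Gcg at 38440 CPM in Cre-positive and 7845 CPM in Cre-negative cells. Their part in the Gpd2 ratio was not tested. Endothelial-like cells held 77.9 CPM in Cre-positive and 112 CPM in Cre-negative islets, 1.44-fold lower (1.07 to 1.90), and did not pass it, where 31.2% of genes did. Macrophage-like cells held 45.4 CPM (86 UMIs) in Cre-positive and 70.3 CPM (14 UMIs) in Cre-negative islets, 1.55-fold lower with an interval that holds equality (0.812 to 2.74), where 34.9% of genes were lower. Delta-like cells held 38.8 CPM in Cre-positive and 42.3 CPM in Cre-negative islets, 1.09-fold lower (0.849 to 1.40), a difference not detectable at this depth. The Gpd2 log2 ratio in PP-like cells was -0.77 beside a median of -0.29 for all genes, and 14.5% of genes had a lower ratio. The same values were -0.52, -0.27 and 34.8% in endothelial-like cells and -0.63, -0.26 and 32.4% in macrophage-like cells. In delta-like cells they were -0.13, -0.14 and 50.4%, close to the median of all genes.

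Slc2a1 was higher in the Cre-positive library where it was most abundant. In endothelial-like cells the fold was 3.76 (2.01 to 7.93), from 263 Cre-positive and 10 Cre-negative UMIs, where 14.2% of genes were higher by the rule. Clusters 7 and 17 held most Cre-positive and cluster 16 most Cre-negative endothelial-like cells, so no cluster gives the comparison alone. Levels in Cre-positive cells were 73.1 CPM (63.3 to 84.0) in cluster 7 and 49.3 CPM (35.7 to 66.5) in cluster 17, and Cre-negative cells of cluster 16 held 17.3 CPM (7.93 to 32.9). In macrophage-like cells, a single cluster, the fold was 3.39 (1.29 to 12.6), from 129 Cre-positive and 4 Cre-negative UMIs, where 17.8% of genes were higher. The endocrine classes held 6.56 to 12.3 CPM in Cre-positive and 4.87 to 7.97 CPM in Cre-negative islets.

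The second comparison asked how islet cells of adult males differed after maternal hyperglycemia in pregnancy. In beta-like cells none of the 3 members at 20 CPM passed the rule when IHG offspring were set against Control offspring, where 0.544% of 5516 genes were higher and 0.689% lower. Slc2a2 was 1.11-fold lower (1.09 to 1.12), at 655 CPM in IHG and 724 CPM in Control offspring, and 29.9% of genes had a lower ratio. Gpd2 was 1.25-fold lower (1.21 to 1.29), at 113 CPM in IHG and 142 CPM in Control offspring, and 5.69% of genes had a lower ratio. G6pc2 was 1.17-fold higher (1.15 to 1.18), at 1452 CPM in IHG and 1246 CPM in Control offspring, and 92.6% of genes had a lower ratio. Slc2a1 was 1.25-fold lower (1.08 to 1.44), at 5.29 CPM in IHG and 6.59 CPM in Control offspring.

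These signs were the same under all 7 alternatives, with log2 ratios of -0.28 to -0.08 for Slc2a2, -0.45 to -0.26 for Gpd2, 0.14 to 0.29 for G6pc2 and -0.35 to -0.12 for Slc2a1. The counts past the rule were 30 higher and 38 lower, and median-of-ratios scaling gave 39 higher and 24 lower. Median depth was 8913 UMIs per IHG and 5833 per Control offspring cell, and the part of depth in these small ratios was not tested. Cluster 3 held 30.0% of IHG and cluster 0 held 45.9% of Control offspring beta-like cells. In 5 of the 6 beta-like clusters G6pc2 was higher in IHG offspring by 1.06- to 1.26-fold. The exception was cluster 4, with 149 IHG and 100 Control offspring cells, where G6pc2 was 1.65-fold lower (1.47 to 1.85), at 624 CPM in IHG and 1029 CPM in Control offspring. Slc2a2 was 1.80-fold lower there (1.55 to 2.09), at 360 CPM in IHG and 650 CPM in Control offspring, and 1.08- to 1.25-fold lower in the 5 other clusters. Gpd2 was lower in IHG offspring in all 6, by 1.19- to 1.40-fold.

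Outside beta-like cells, Gpd2 was again lower in IHG offspring in each class compared. In PP-like cells it was 2.20-fold lower (1.59 to 3.05), at 32.4 CPM (62 UMIs) in IHG and 71.1 CPM (108 UMIs) in Control offspring, where 13.5% of genes were lower and 4.62% higher by the rule. Other hormones differed there, with Sst at 2950 CPM in IHG and 23070 CPM in Control offspring, and Ins2 at 7506 CPM in IHG and 29481 CPM in Control offspring. Their part in the ratio was not tested. In alpha-like cells Gpd2 was 1.45-fold lower (1.32 to 1.61), at 70.2 CPM in IHG and 102 CPM in Control offspring, in delta-like cells 1.32-fold (1.09 to 1.59) and in endothelial-like cells 1.31-fold (1.02 to 1.67). None of these 3 passed the rule, where 9.16% of genes were lower and 2.14% higher in delta-like cells. Most IHG offspring alpha- and delta-like cells lay in clusters 12 and 8, and most Control offspring ones in clusters 2 and 9. Within cluster 2 Gpd2 stood at 73.3 CPM in IHG and 100 CPM in Control offspring, within cluster 8 at 56.4 CPM in IHG and 68.3 CPM (44.2 to 101) in Control offspring, and within cluster 9 at 35.5 CPM in IHG and 67.6 CPM in Control offspring. Within the endothelial-like cluster 7 Gpd2 stood at 96 CPM (74.6 to 122) in IHG and 101 CPM (82.6 to 121) in Control offspring. That difference was not detectable at this depth. In macrophage-like cells 17 IHG and 7 Control offspring UMIs gave 1.90-fold lower with an interval that holds equality (0.666 to 4.82), where 24.7% of genes were lower and 29.2% higher. Slc2a1 in endothelial-like cells was 1.55-fold lower (1.09 to 2.20), at 35.5 CPM in IHG and 55.0 CPM in Control offspring, where 8.95% of genes were lower and 13.1% higher. Cluster 16 held most IHG and cluster 7 most Control offspring cells of that class, and within cluster 7 the levels were 50.8 CPM (35.6 to 70.4) in IHG and 55.4 CPM (42.3 to 71.3) in Control offspring, a difference not detectable at this depth.

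Slc2a2 in alpha-like cells had the lowest ratio of the 4 genes in this comparison, 9.90-fold lower (7.79 to 12.7), at 5.97 CPM in IHG and 59.1 CPM in Control offspring. The insulin transcripts in the same cells stood at 668 CPM in IHG and 5749 CPM in Control offspring for Ins1, and at 2381 CPM in IHG and 19964 CPM in Control offspring for Ins2. G6pc2 was 3.86-fold lower there, at 30.2 CPM in IHG and 117 CPM in Control offspring, where 8% of genes were lower and 1.22% higher by the rule. In PP-like cells Slc2a2 was 7.12-fold lower (4.55 to 11.6), on 23 IHG and 130 Control offspring UMIs, and G6pc2 2.91-fold lower (2.22 to 3.86). Ins1 stood there at 2364 CPM in IHG and 7772 CPM in Control offspring, and Ins2 at 7506 CPM in IHG and 29481 CPM in Control offspring. Of all genes in PP-like cells, 13.5% were lower and 4.62% higher by the rule. Slc2a2 was also lower by the rule in endothelial-like cells (1.69-fold, 1.15 to 2.47), where 8.95% of genes were lower and 13.1% higher. In macrophage-like cells 34 IHG and 13 Control offspring UMIs gave 1.77-fold lower with an interval that holds equality (0.855 to 3.43). Of all genes there, 24.7% were lower and 29.2% higher. The endothelial-like level of Slc2a2 was 4.48% of the beta-like level in IHG and 6.85% in Control offspring, with Ins2 at 5.50% in IHG and 5.29% in Control offspring. Its macrophage-like level was 10.3% in IHG and 16.4% in Control offspring, with Ins2 at 9.19% in IHG and 13.3% in Control offspring.

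Other genes of the pathway were read from 6 lists of 70 genes, with the 4 members left out. In beta-like cells of Cre-positive against Cre-negative islets, 4 of 12 genes of the hexokinase and glucose-6-phosphatase list reached 20 CPM and 2 were lower, with a median log2 ratio of -0.34 beside -0.22 for all genes. The counts of this and the following lists stand beside 19.6% of all genes lower and 6.89% higher in this comparison. Slc37a4, the glucose-6-phosphate carrier that feeds the phosphatase, was 1.83-fold lower (1.75 to 1.92), at 88.4 CPM in Cre-positive and 162 CPM in Cre-negative cells. IHG offspring held 122 CPM and Control offspring 93 CPM of Slc37a4. Pgm1, phosphoglucomutase, was 1.55-fold lower, and not by the rule under median-of-ratios scaling. Its level was 28.2 CPM in Cre-positive, 43.6 CPM in Cre-negative, 32.9 CPM in IHG offspring and 37.6 CPM in Control offspring cells. Hk1 and Hk2, hexokinases with a high affinity for glucose that beta cells normally keep low, were near 0, at 0.277 CPM (Hk1) and 0.154 CPM (Hk2) in Cre-positive and 0.352 CPM (Hk1) and 0 CPM (Hk2) in Cre-negative cells. Slc2a5, the fructose transporter gene, was the only 1 of 11 further transporter genes at 20 CPM and did not pass the rule.

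Of 11 glycolysis genes at 20 CPM, 2 were lower and 1 higher, with a median of -0.16, where 19.6% of all genes were lower and 6.89% higher. Pfkm, a phosphofructokinase, was 1.74-fold lower (1.61 to 1.88), and Pfkfb2, whose enzyme makes an activator of phosphofructokinase, 1.95-fold lower (1.83 to 2.09). Within cluster 0 they were 1.64-fold (1.16 to 2.35) and 1.77-fold (1.35 to 2.34) lower. Pfkm stood at 29.7 CPM in Cre-positive, 51.7 CPM in Cre-negative, 31.6 CPM in IHG offspring and 30.9 CPM in Control offspring cells. Pfkfb2 stood at 41.2 CPM in Cre-positive, 80.4 CPM in Cre-negative, 48.5 CPM in IHG offspring and 59.3 CPM in Control offspring cells. The enolase gene Eno1 was 1.52-fold higher (1.41 to 1.63).

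Among 7 NADH shuttle genes at 20 CPM, 1 was lower beside the same 19.6% of all genes. It was Slc25a12, an aspartate-glutamate carrier, at 23.4 CPM in Cre-positive and 46.6 CPM in Cre-negative cells, 1.99-fold lower (1.83 to 2.17). IHG offspring held 29.1 CPM and Control offspring 29.6 CPM of Slc25a12. Gpd1, the cytosolic partner of Gpd2, stood at 14.4 CPM in Cre-positive and 6.08 CPM in Cre-negative cells, under 20 CPM in both. All 5 glucose-responsive regulators reached 20 CPM and 3 were lower, with a median of -0.79, beside 19.6% of all genes lower. Txnip, which rises with glucose in beta cells, was 2.57-fold lower (2.51 to 2.63), at 326 CPM in Cre-positive and 837 CPM in Cre-negative cells. IHG offspring held 263 CPM and Control offspring 349 CPM of Txnip. Within cluster 0 Txnip stood at 288 CPM in Cre-positive and 339 CPM in Cre-negative cells, and in Cre-negative cells of cluster 4 at 967 CPM. Its relative Arrdc4 was 2.69-fold lower and Mlxip, of the same list, 1.73-fold lower. Arrdc4 stood at 15.4 CPM in Cre-positive, 41.5 CPM in Cre-negative, 10.2 CPM in IHG offspring and 11.2 CPM in Control offspring cells. Mlxip stood at 25.5 CPM in Cre-positive, 44.2 CPM in Cre-negative, 21.6 CPM in IHG offspring and 20.9 CPM in Control offspring cells.

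Of 10 transcription factor genes at 20 CPM known to act on Slc2a2 or G6pc2, 1 was lower and none higher, beside 19.6% of all genes lower and 6.89% higher, and the median of 0.20 lay above that of all genes. Pdx1, the beta-cell regulator whose promoter drives Cre here, stood at 126 CPM in Cre-positive and 103 CPM in Cre-negative cells, and Mafa, an activator of beta-cell genes, at 521 CPM in Cre-positive and 404 CPM in Cre-negative cells. Rfx6 was 1.69-fold lower (1.60 to 1.79), and just under the rule with median-of-ratios scaling, at -0.58. Rfx6 stood at 57.1 CPM in Cre-positive, 96.6 CPM in Cre-negative, 44.3 CPM in IHG offspring and 51.5 CPM in Control offspring cells. Within cluster 0 it was 1.32-fold lower (1.04 to 1.7). When IHG offspring were set against Control offspring, only Mafa of all 6 lists passed in beta-like cells, 1.55-fold lower (1.54 to 1.57), at 827 CPM in IHG and 1284 CPM in Control offspring. Its log2 ratio was just under the rule with each other scaling, at -0.58 and -0.57. The medians of the 6 lists lay between -0.13 and 0.22 there, beside -0.06 for all genes.

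**Figure D5:**
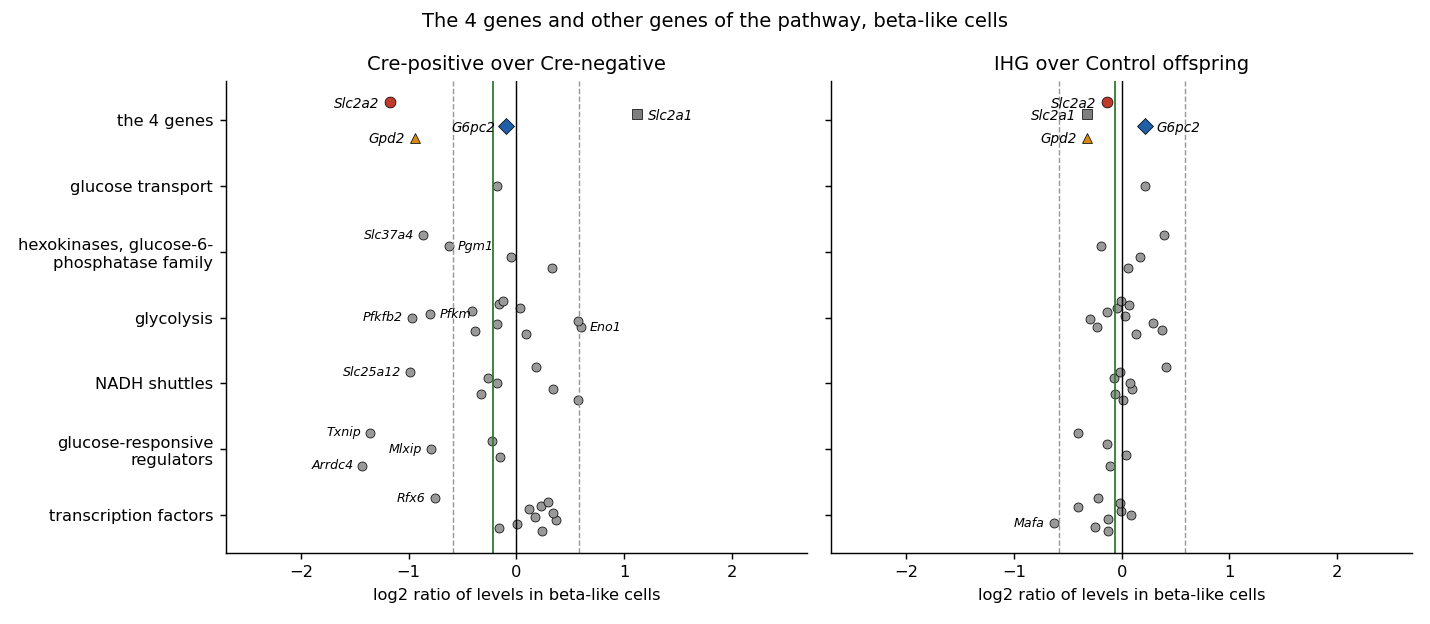
Log2 ratio between libraries in beta-like cells (x axis) of the 4 genes and of every listed gene at 20 CPM or more, 1 grey point per gene by list; the green line is the median of all genes, dashed lines mark 1.5-fold and named genes lie past it. Slc2a2 and Gpd2 lie with Slc37a4, Pfkfb2, Slc25a12, Txnip and Arrdc4 on the lower side in Cre-positive cells. Set beside the offspring libraries, the Cre-positive level is below both for Slc37a4, Pfkfb2 and Slc25a12, between them for Txnip and above both for Arrdc4. For offspring only Mafa lies past the rule. G6pc2 changes sign with the scaling in the Cre comparison.

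The genes whose level was most like each member were ranked by Pearson correlation of log2(CPM + 5) over 26 sums of a class in a library, from 7 classes and 10999 genes, which share libraries and depth. Slc2a2 was nearest to Prss53 (r = 0.966), Ins2 (0.958), B830017H08Rik (0.956), G6pc2 (0.949) and Ins1 (0.949). G6pc2 was nearest to Sytl4 (0.973), Ins2 (0.970), Ins1 (0.970), B830017H08Rik (0.967) and Tmem215 (0.951). Slc2a1 was nearest to Stat2 (0.916), Znfx1 (0.916), Ifi44 (0.889), Cdk9 (0.888) and Irf7 (0.877), of which Stat2, Ifi44 and Irf7 are known as genes of the interferon response. No gene came so near to Gpd2, for which Zfp568 (0.717), Sox4 (0.668), Arl5a (0.631), Rnf157 (0.622) and Stard4 (0.615) led. Slc2a1 had an r of -0.321 with Slc2a2 and -0.288 with G6pc2.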

How the data were processed

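Per the labels' protocols, islets were digested with collagenase, dissociated with trypsin and captured on the SeekOne MM platform, in which transcripts receive a UMI at their 3' end. The deposited matrices hold counts, whole UMIs per gene and cell barcode, not normalized by the authors. The submitters' processing notes list Cell Ranger, Seurat and mm10 without version or role. For the aligner, the annotation and the cell calling, the sources used here give nothing more. In each library the shallowest barcode held 500 UMIs.

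Barcodes under 500 genes or above 20% mitochondrially encoded UMIs were dropped. Doublets were marked per library with Scrublet in scanpy 1.11.5. The automatic threshold took out 1.71% of the Cre-positive and 4.54% of the IHG offspring library. It marked only 0.152% of the Cre-negative library and 0% of the Control offspring library, so there the cells with the top scores were removed at an expected rate of 6% (6.26% in Cre-negative, 6.52% in Control offspring). Cells scaled to 10000 counts were clustered on 2000 variable genes without the 4 members, 30 principal components and 15 neighbours by Leiden at resolution 1 (leidenalg 0.10.2, Python 3.11.15, numpy 2.4.6, scipy 1.17.1). Clusters were named from marker lists by rules settled after clusters had been seen. UMIs were summed per class and library and scaled to CPM of all gene UMIs of the class. One library per group allows no test, so ratios, exact counting intervals and a size rule are given. The intervals and the rule were tried on simulated counts with counting error only, which hold no spread between animals or libraries. Classes under 50 cells in a library were left out. Genes could be named if they were members, list genes or the 5 nearest in profile. The members and lists were chosen with earlier results of these data known. One gene of the glycolysis list is not reported here. The alternatives were other scalings and totals, equal cell weights, no doublet removal, clustering by library, leaving out cells with other hormones and single clusters.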

Additional observations from a re-analysis of the deposited data

How the results depend on the processing

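Of 9 alternatives for the Cre comparison, Slc2a2 and Gpd2 kept their sign in all and Slc2a1 in 8; G6pc2 kept it in 6. With median-of-ratios scaling the log2 ratios were -1.0 (Slc2a2), 0.08 (G6pc2) and -0.77 (Gpd2), with 746 genes higher and 731 lower by the size rule. Totals without hormone and mitochondrially encoded genes gave -1.10 (Slc2a2), -0.03 (G6pc2) and 682 genes higher. Equal weight for every cell gave -1.09 (Slc2a2) and 0.01 (G6pc2). Each library clustered on its own gave -1.40 (Slc2a2), -0.49 (G6pc2) and -0.78 (Gpd2). Without cells with other hormones the values were -1.25 (Slc2a2) and -0.20 (G6pc2). In cluster 0 alone they were -1.25 (Slc2a2), 0.00 (Slc2a1), -0.69 (G6pc2) and -0.56 (Gpd2). Chosen after seeing the data, Control offspring in place of Cre-negative gave -1.40 (Slc2a2), 0.68 (Slc2a1), 0.05 (G6pc2), -1.14 (Gpd2) and 125 genes lower, and leaving out cluster 4 gave -1.26 (Slc2a2), -0.55 (G6pc2), -0.74 (Gpd2) and 754 genes lower. For IHG over Control offspring no sign changed under 7 alternatives. Median-of-ratios scaling gave -0.09 (Slc2a2), 0.27 (G6pc2), -0.27 (Gpd2) and 24 genes lower. Totals without hormone and mitochondrially encoded genes gave -0.08 (Slc2a2), 0.29 (G6pc2), -0.26 (Gpd2) and 67 genes higher. Equal cell weights gave -0.22 (Slc2a2) and 0.18 (G6pc2), and cluster 0 alone -0.28 (Slc2a2), 0.14 (G6pc2), -0.45 (Gpd2) and 69 genes higher. The cause of these moves was not tested.

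No paired analysis was possible because each group had 1 library, and with 1 library per group none was left out in turn. Animal, dissociation and library cannot be told apart from the groups. Depth limits the endothelial- and macrophage-like values of the Cre-negative and Control offspring libraries, where 3 UMIs stand for 2.70 to 27.4 CPM.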

Other observations

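A small group of duct-like cells was named only when each library was clustered on its own, with 26 cells in the Cre-positive, 20 in the Cre-negative and 12 in the IHG offspring library, nearly all from the unnamed cluster 20. The Cre-negative ones held the duct genes Sox9 at 1753 CPM and Spp1 at 3263 CPM, and Slc2a2 at 270 CPM (184 to 384, 31 UMIs in 12 cells) beside Ins1 at 349 CPM and G6pc2 at 26.2 CPM (3 UMIs). Cre-negative beta-like cells held 619 CPM of Slc2a2 and 42920 CPM of Ins1. The IHG offspring ones held 5 Slc2a2 UMIs, 131 CPM (42.7 to 307), with Ins1 at 1394 CPM. In the Cre-positive ones Slc2a2 stood at 180 CPM (132 to 240), but with Ins1 at 30297 CPM and G6pc2 at 602 CPM. Slc2a1 in these cells stood at 76.7 CPM (46.8 to 118) in the Cre-positive, 52.3 CPM (19.2 to 114) in the Cre-negative and 78.9 CPM (16.3 to 231) in the IHG offspring library. These cells were looked at after the clusters had been seen.

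The unnamed cluster 10, whose cells held several islet hormones and a median of 15106 UMIs in the Cre-positive library, had Slc2a2 at 124 CPM there, 239 CPM in IHG offspring and 318 CPM in Control offspring, the same order of these 3 libraries as in beta-like cells.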
